A study of Mus musculus with 8 samples.

Results

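The genes described here are 45 cell cycle and DNA replication genes, chosen by name out of the 15705 genes listed in the deposited table. No measured value served as a criterion, but earlier results of these data were known when they were chosen. They comprise 20 genes of mitosis, 12 genes of DNA replication and 13 regulators of the G1 phase, and all 45 were measured. The study sequenced poly(A) RNA of the lateral ganglionic eminence (LGE), the embryonic forebrain structure that makes striatal projection neurons, from mouse embryos at E18.5. The 4 control libraries came from embryos of genotype Isl1 flx/flx, and the 4 conditional knockout (cKO) libraries from littermates of genotype Dlx1-Cre; Isl1 flx/flx, bred by crossing Dlx1-cre; Isl1flx/+ with Isl1 flx/flx animals. Both groups therefore carry floxed alleles of Isl1, a LIM-homeodomain transcription factor, and Cre is present in the cKO alone, so that the presence of Cre and the loss of Isl1 cannot be told apart. Dlx1 is active in subventricular progenitors of the ganglionic eminences and in the neurons they make. In which cells this Cre acted in these embryos was not measured. The labels describe one LGE dissection per embryo and give neither litter nor sex.

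Progenitors of the LGE divide in a ventricular zone of radial glia and in a subventricular zone of intermediate progenitors, and their daughters leave the cycle as neurons. Cyclin D with Cdk4 or Cdk6, and then cyclin E with Cdk2, release E2F transcription factors from the retinoblastoma protein, which turns on genes that load and fire replication origins and supply nucleotides. Genes of mitosis are switched on later in the cycle, many of them through a promoter element called the cell cycle genes homology region (CHR), which binds the MuvB complexes.

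Promoter sequences of 34 of the 45 genes were found in the RefSeq table of build GRCm38.p6 (16 of mitosis, 10 of replication and 8 regulators of G1), as 37 windows running from 250 bases before to 50 bases after a transcription start. The windows were searched on both strands for CHR elements (TTTGAA and TTTAAA), for E2F-type elements (TTTCGCGC, TTTGGCGC and TTCCCGCC) and for the CCAAT box. The 8 stretches printed here are the 160 bases just before the start, read along the gene. They are examples of the matches in mitosis and replication genes. Matches elsewhere in a window, such as a CHR match at -221 in Mcm5, are not shown. Capitals mark matches to these motifs, with overlapping matches run together, and the genes were picked after the matches were seen. The mitosis genes are Cdk1 (chr10:69352913-69353072, minus strand), Ccnb1 (chr13:100786487-100786646, minus strand), Plk1 (chr7:122159275-122159434, plus strand), Top2a (chr11:99024190-99024349, minus strand) and Ube2c (chr2:164769769-164769928, plus strand). The replication genes are Mcm5 (chr8:75109349-75109508, plus strand), Mcm6 (chr1:128359706-128359865, minus strand) and Rrm1 (chr7:102441535-102441694, plus strand).
Cdk1: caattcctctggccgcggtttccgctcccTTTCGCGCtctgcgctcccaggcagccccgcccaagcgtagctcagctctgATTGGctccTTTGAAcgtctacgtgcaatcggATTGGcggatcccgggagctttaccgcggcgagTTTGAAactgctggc
Ccnb1: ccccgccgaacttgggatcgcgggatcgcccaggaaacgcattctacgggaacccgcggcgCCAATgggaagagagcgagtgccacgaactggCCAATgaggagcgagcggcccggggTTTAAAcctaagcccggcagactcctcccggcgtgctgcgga
Plk1: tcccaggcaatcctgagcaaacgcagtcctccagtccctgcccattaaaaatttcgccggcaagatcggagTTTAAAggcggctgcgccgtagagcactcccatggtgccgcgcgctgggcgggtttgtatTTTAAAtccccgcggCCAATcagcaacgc
Top2a: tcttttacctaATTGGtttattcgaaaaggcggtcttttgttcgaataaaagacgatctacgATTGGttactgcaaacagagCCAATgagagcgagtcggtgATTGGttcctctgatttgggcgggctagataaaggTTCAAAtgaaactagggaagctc
Ube2c: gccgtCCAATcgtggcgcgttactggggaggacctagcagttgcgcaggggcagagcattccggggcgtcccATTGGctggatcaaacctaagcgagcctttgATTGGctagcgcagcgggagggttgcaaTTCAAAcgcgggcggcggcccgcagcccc
Mcm5: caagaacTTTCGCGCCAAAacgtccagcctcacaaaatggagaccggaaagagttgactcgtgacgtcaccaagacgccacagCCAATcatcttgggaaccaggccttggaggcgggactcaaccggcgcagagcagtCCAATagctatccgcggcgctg
Mcm6: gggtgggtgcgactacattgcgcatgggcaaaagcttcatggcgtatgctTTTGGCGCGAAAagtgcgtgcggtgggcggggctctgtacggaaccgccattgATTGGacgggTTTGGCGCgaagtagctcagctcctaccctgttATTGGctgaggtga
Rrm1: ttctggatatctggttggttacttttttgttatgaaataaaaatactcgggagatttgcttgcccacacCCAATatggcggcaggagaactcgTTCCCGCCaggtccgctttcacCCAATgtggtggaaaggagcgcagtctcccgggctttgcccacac

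A CHR match was present in 14 of 16 mitosis windows (87.5%), in 3 of 11 replication windows (27.3%) and in 2 of 10 windows of G1 regulators (20%), against 27.6% of all 32851 promoters in the table. Within 50 bases of the start on either side, 12 mitosis genes, 1 replication gene and 2 G1 regulators held a CHR match, against 8.28% of all promoters. E2F-type matches showed the other order. They were found in 6 of 11 replication windows (54.5%), those of Cdt1, Mcm3, Mcm5, Mcm6, Mcm7 and Rrm1, in 1 of 16 mitosis windows (Cdk1) and in 0 of 10 windows of G1 regulators, against 2.96% of all promoters. CCAAT boxes were found in 87.5% of mitosis windows, 81.8% of replication windows and 40% of windows of G1 regulators, against 37.4% of all promoters. The promoters were not matched for base composition, and a match is a run of letters, not a measured binding site. Only the spellings given above were searched, so a window without a match may still hold an element of another spelling.

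**Figure D1:**
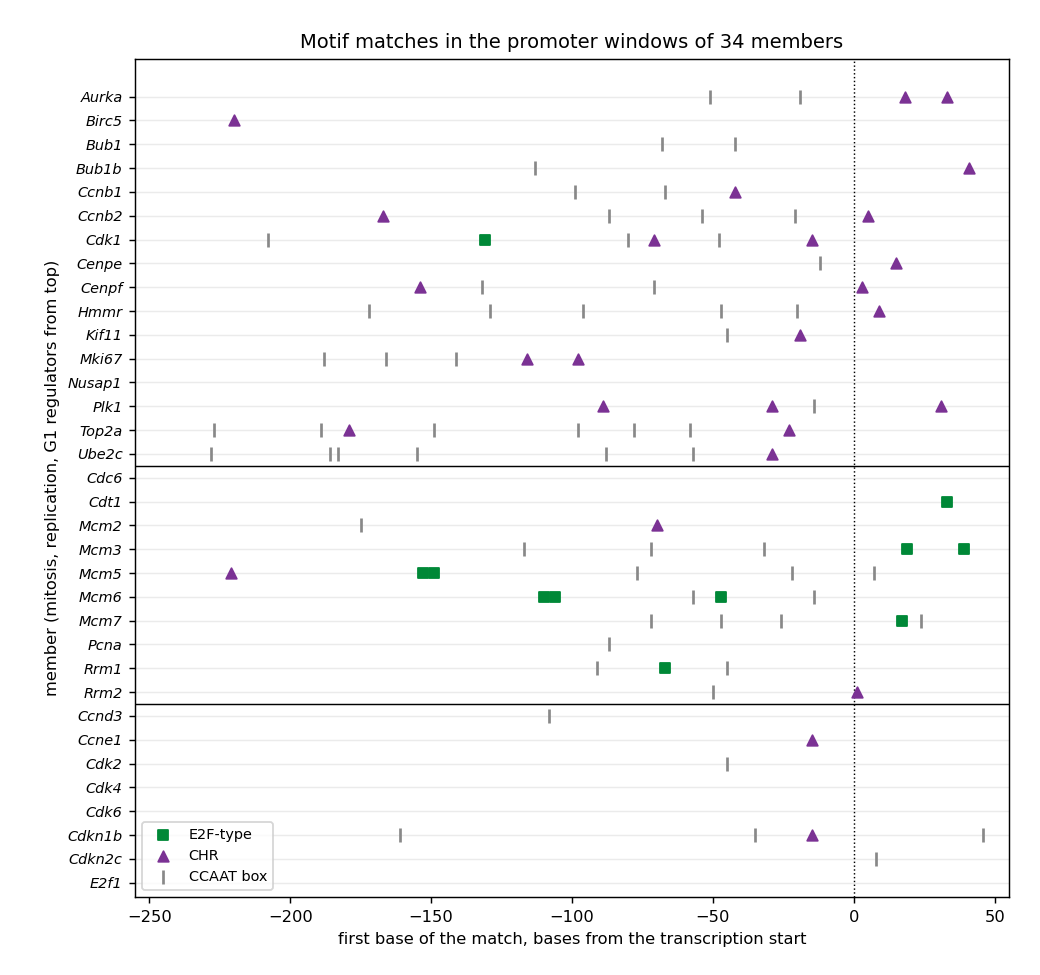
Motif matches in the promoter windows of the 34 genes searched, by distance in bases from the transcription start (0, dotted line). Squares are E2F-type matches, triangles CHR matches and bars CCAAT boxes. CHR matches lie close to the start in 12 mitosis genes, and E2F-type matches occur in 6 replication genes and in Cdk1.

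Levels are given as the deposited RPKM (adjusted reads scaled by gene length and library sum). Differences are log2 values of cKO minus control fitted by limma to the deposited adjusted read values, with their SE and with p-values adjusted over the 15698 genes tested. The sequencing depth is unknown, since those values had been brought to a common scale and adjusted before deposit (sums of 23732455 to 24456923 per library), a step that also narrowed the spread between replicates, so that SDs, SEs and p-values may be too small. The targeted gene went against its label. Isl1 stood at 63.0, 59.9, 68.0 and 57.9 RPKM in the controls and at 80.6, 87.9, 91.9 and 96.7 RPKM in the libraries labelled cKO, a log2 difference of 0.53 ± 0.06 (SE; limma adjusted p = 0.000338; higher in 4 of 4 libraries). Reads counted over a whole gene can include those of exons outside a deletion, so Isl1 does not check the labels here, and every cKO value below is that of libraries labelled cKO. LGE markers were present in both groups, with Gad1 at 71.4 and 75.2 RPKM and Gsx2 at 6.38 and 5.68 RPKM in control and cKO. Dlx1, the gene that names the Cre driver, was at 149 ± 7.03 and 228 ± 7.90 RPKM (SD, n = 4 each), higher in all 4 cKO libraries than in any control (log2 difference 0.63 ± 0.05, SE; limma adjusted p = 8.51e-06). Of the 15698 genes, 451 were higher and 594 lower in cKO (6.66% in all). The highest log2 difference of all genes was 5.18, for Eif2s3y, a gene of the Y chromosome, so the groups may differ in their mix of sexes. The part of sex in the differences below was not tested.

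The cell cycle genes did not differ detectably between the groups. None of the 45 (0 genes) passed the threshold of 0.05 on the limma adjusted p, against 6.66% of all genes tested, and the authors' deposited table likewise gave 0 of 45, against 6.55%. At an unadjusted p under 0.05 there were 2 genes, Cdkn1b and Cdkn1c, against 18.7% of all genes, and 1 gene in the authors' deposited table. No gene of the 45 had groups that did not overlap (0 genes, against 12.7% of all genes). In direction, 26 were above 0 and 19 below, and the median log2 difference was 0.03, against 0.01 over all genes tested.

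The intervals give a range for each difference, and they may be too narrow since the SEs may be too small. The 95% interval of the log2 difference lay within 0.25 of 0 in 37 of the 45 genes (82.2%, against 49.6% of all genes) and within 0.5 of 0 in all 45 (73.8% of all genes). The outermost bounds were -0.47 for Ccne1 and 0.42 for Cdkn1c. The median SE was 0.06 for the 45 genes and 0.07 for all genes. Genes of lower level are included in all genes (down to 0.0073 RPKM, against 2.56 RPKM in the 45), so these comparisons are not matched for level. In this bulk RNA, fewer dividing cells and less RNA per dividing cell cannot be told apart.

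**Figure D2:**
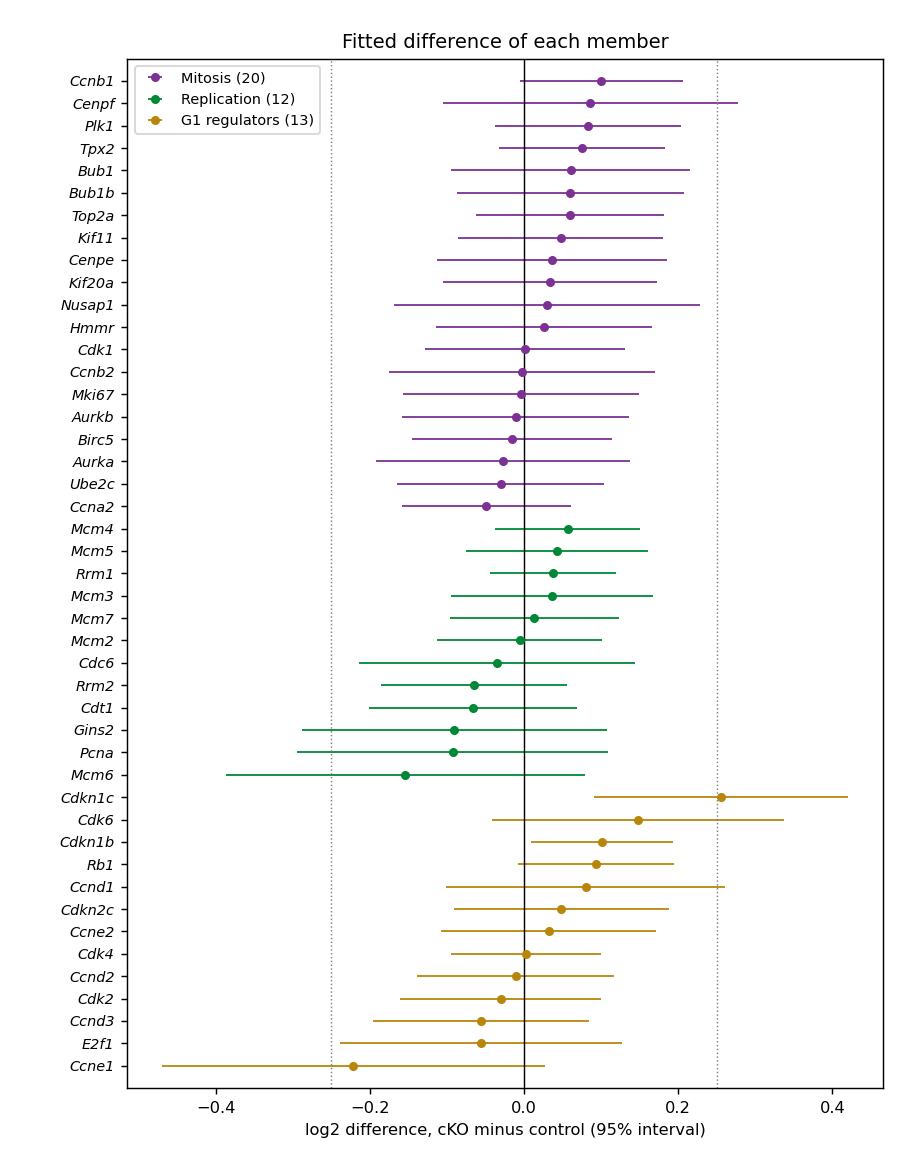
Fitted log2 difference (cKO minus control) of each of the 45 genes with its 95% interval, ordered within the 3 phases; dotted lines stand at 0.25 on either side of 0. The intervals of 37 genes lie between the dotted lines, and those of Cdkn1c and Cdkn1b lie above 0.

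Levels spanned about 2 orders of magnitude, from 2.56 RPKM for Cdc6 to 247 RPKM for Cdk4, averaged over the 8 libraries. Among the 45 genes, Cdk4, Ccnd2 and Pcna were the most abundant and Cdc6, Ccne1 and Cdk6 the least. The coefficient of variation over the 8 libraries had a median of 6.27%, from 3.29% for Rrm1 to 13.9% for Mcm6. In the 10910 genes at or above the level of Cdc6 the median was 6.04%.

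**Figure D3:**
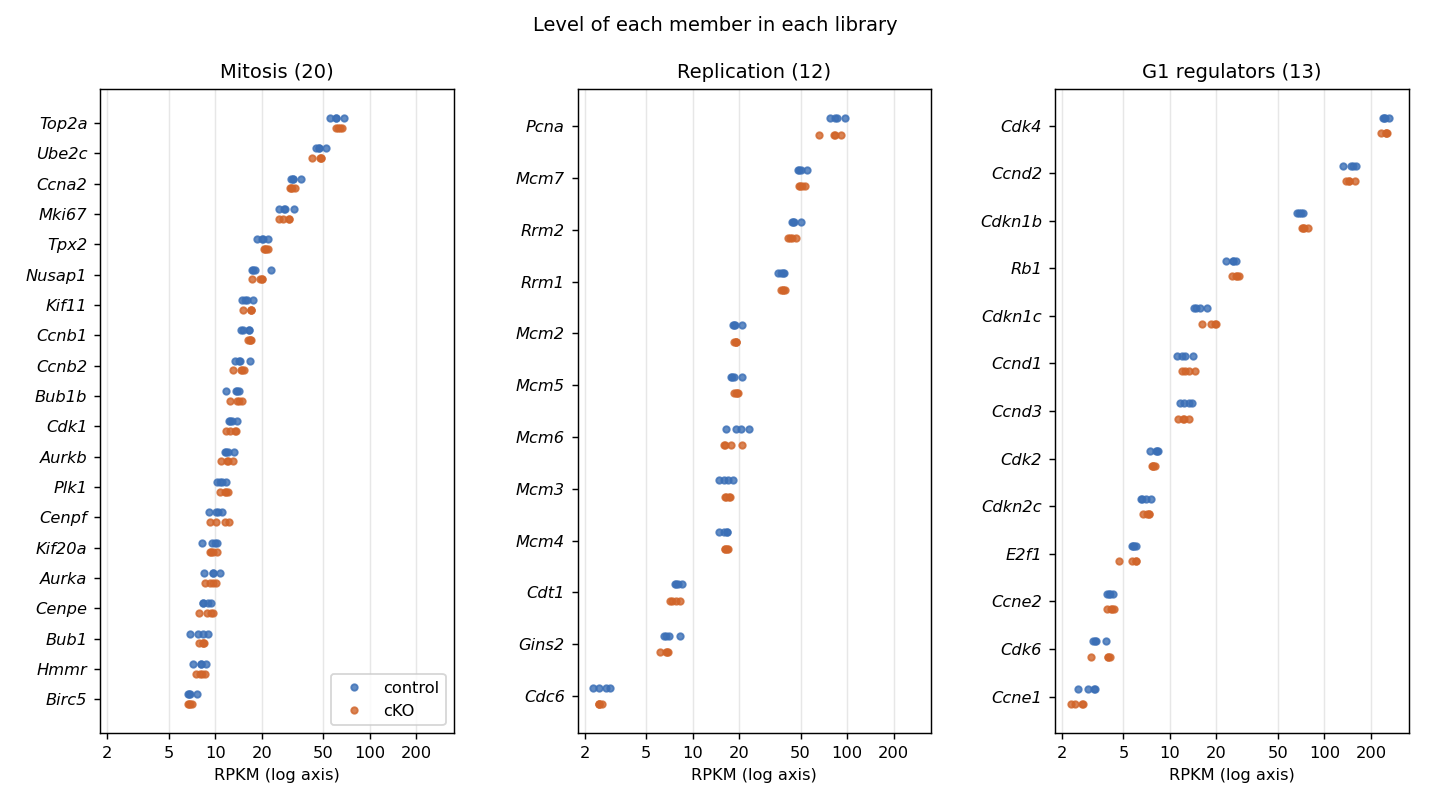
RPKM (log axis) of each of the 45 genes in each library, ordered by mean level within mitosis, replication and G1 regulators; each dot is 1 library, 4 control and 4 cKO. The dots of the groups overlap for every gene, and levels run from 2.56 RPKM for Cdc6 to 247 RPKM for Cdk4.

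The mitosis genes encode the engine of entry into mitosis (Cdk1 and its cyclins), the mitotic kinases, spindle motors, kinetochore proteins and the ubiquitin-conjugating enzyme Ube2c, which helps to degrade cyclins. None of the 20 rose or fell (0 genes, against 6.66% of all genes, with 0 at an unadjusted p under 0.05, against 18.7%). Their differences ran from -0.05 (Ccna2) to 0.10 (Ccnb1) on the log2 scale with a median of 0.03, 13 above 0 and 7 below. Levels ran from 6.91 RPKM (Birc5) to 62.1 RPKM (Top2a), with a median of 13.2 RPKM.

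Mki67, which coats mitotic chromosomes and is the standard proliferation marker (chromosome 7, 135689784 to 135716361, minus strand, GRCm38), stood at 27.9, 25.9, 32.4 and 28.2 RPKM in the controls. In cKO it stood at 29.9, 26.0, 27.3 and 30.1 RPKM. The groups overlapped throughout, with the highest and the lowest value both in controls. The means were 28.6 ± 2.73 and 28.3 ± 2.01 RPKM (SD, n = 4 each), and the log2 difference was -0.0036 ± 0.07 (SE; 95% interval -0.16 to 0.15; limma adjusted p = 0.987).

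Top2a, the topoisomerase that untangles sister chromatids (chromosome 11, 98992943 to 99024189, minus strand), was the most abundant of the 20. It was at 60.4, 55.6, 67.8 and 60.4 RPKM in control and 65.8, 60.5, 62.3 and 64.0 RPKM in cKO, so that the cKO values fell inside the control range (difference 0.06 ± 0.06, SE; limma adjusted p = 0.63). Cdk1, the kinase that drives cells into mitosis, was at 12.9, 12.5, 13.7 and 12.4 RPKM in control and 11.8, 12.4, 13.7 and 13.4 RPKM in cKO. Its log2 difference was 0.0013 ± 0.06 (SE; 95% interval -0.13 to 0.13).

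Among the cyclins, Ccnb1, a partner of Cdk1, had the largest difference of the 20. The controls held 16.5, 14.7, 16.5 and 15.2 RPKM and the cKO libraries 16.3, 17.1, 16.7 and 16.9 RPKM, so 3 of 4 cKO libraries lay above every control. The difference was 0.10 ± 0.05 (SE; 95% interval -0.01 to 0.21; limma adjusted p = 0.299), with an exact two-sided permutation p of 0.0571. Ccnb2, the other B-type cyclin, gave -0.0023 ± 0.08, and Ccna2, which acts in S phase and G2, gave -0.05 ± 0.05 with means of 32.8 and 31.5 RPKM. Pseudogene copies of Ccnb1 and Ccnb2 are named in the annotation, and an exon of Exosc9 overlaps Ccna2 on the other strand. The sources used here do not say how such reads were assigned, so these values are uncertain to that extent.

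The mitotic kinases gave small differences of mixed sign. Plk1, which acts from mitotic entry to cytokinesis, had means of 10.99 and 11.6 RPKM and a difference of 0.08 ± 0.06 (SE). Aurka, the kinase of the spindle poles, gave -0.03 ± 0.08, and Aurkb, the kinase of the chromosomal passenger complex, gave -0.01 ± 0.07. Bub1 and Bub1b, of the spindle checkpoint, each gave 0.06 ± 0.07. Birc5 (survivin), the partner of Aurkb, gave -0.02 ± 0.06.

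The spindle and kinetochore genes were also close to 0. The motors Kif11 and Kif20a gave 0.05 ± 0.06 and 0.03 ± 0.06 (SE), and the kinetochore motor Cenpe gave 0.04 ± 0.07. Tpx2, which builds spindle microtubules, gave 0.07 ± 0.05, and Hmmr, another spindle protein, gave 0.03 ± 0.06. Cenpf, a kinetochore protein, was the one mitosis gene whose 95% interval passed 0.25 (difference 0.09 ± 0.09, interval -0.10 to 0.28), with 10.1, 9.16, 11.1 and 10.5 RPKM in control and 12.4, 9.23, 10.2 and 11.6 RPKM in cKO. Nusap1, which bundles spindle microtubules, held 23.1 RPKM in control replicate 3 and 17.3 to 20.1 RPKM in the other 7 libraries (difference 0.03 ± 0.09). Ube2c had means of 47.8 ± 2.89 and 46.6 ± 2.97 RPKM (SD, n = 4 each; difference -0.03 ± 0.06).

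The replication genes encode the Mcm2 to Mcm7 helicase, its loaders Cdc6 and Cdt1, the helicase subunit Gins2, the sliding clamp Pcna and the ribonucleotide reductase subunits Rrm1 and Rrm2. None of the 12 rose or fell (0 genes, against 6.66% of all genes, with 0 at an unadjusted p under 0.05, against 18.7%). Their log2 differences ran from -0.15 (Mcm6) to 0.06 (Mcm4) with a median of -0.02, 5 above 0 and 7 below.

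The 6 helicase subunits assemble in equal numbers into one ring, and the RPKM of 5 of them lay together while Mcm7 stood higher. Averaged by group, Mcm2, Mcm3, Mcm4, Mcm5 and Mcm6 ranged from 16.04 to 19.8 RPKM, and Mcm7 was at 50.6 ± 3.01 RPKM in control and 50.8 ± 1.86 in cKO (SD, n = 4 each). Within each library Mcm7 was 2.64 to 3.12 times the median of the other subunits, with a median of 2.80 over the 8 libraries. Mcm7 (chromosome 5, 138164583 to 138172422, minus strand) shares exonic sequence with Cops6 and Ap4m1 on the other strand, and the part of these reads in its level was not tested.

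Mcm6 (chromosome 1, 128331590 to 128359664, minus strand) was the most variable of the 45 genes. Its promoter held 3 E2F-type matches, of which those at -110 and -106 overlap on opposite strands. Its values were 16.5, 19.1, 23.1 and 20.6 RPKM in control and 17.6, 15.9, 20.9 and 16.3 RPKM in cKO. Both groups spread widely and overlapped. The difference was -0.15 ± 0.11 (SE; 95% interval -0.39 to 0.08; limma adjusted p = 0.496). The other subunits gave -0.0054 ± 0.05 (Mcm2), 0.04 ± 0.06 (Mcm3), 0.06 ± 0.04 (Mcm4), 0.04 ± 0.05 (Mcm5) and 0.01 ± 0.05 (Mcm7).

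Pcna, which holds the polymerases on DNA (chromosome 2, 132249162 to 132253314, minus strand), was the most abundant replication gene. It was at 97.6, 85.7, 83.4 and 77.4 RPKM in control and 65.9, 91.2, 83.3 and 81.7 RPKM in cKO. Replicate 1 was the highest control and the lowest cKO library, and the other 6 libraries lay between 77.4 and 91.2 RPKM. The difference was -0.09 ± 0.09 (SE; 95% interval -0.29 to 0.11; limma adjusted p = 0.658), and 2 pseudogene copies, Pcna-ps1 and Pcna-ps2, are annotated.

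Of the nucleotide supply genes, Rrm1 was the steadiest of the 45 genes over the 8 libraries. It had means of 37.7 ± 1.503 and 38.5 ± 1.00 RPKM (SD, n = 4 each; difference 0.04 ± 0.04, SE), and Rrm2, the subunit that limits the enzyme in S phase, had 46.0 ± 2.92 and 43.7 ± 2.12 RPKM (difference -0.06 ± 0.05). The origin-licensing factors Cdt1 and Cdc6 gave -0.07 ± 0.06 and -0.03 ± 0.08, at 8.03 and 2.60 RPKM in control. Gins2 gave -0.09 ± 0.09, with control replicate 1 the highest at 8.24 RPKM and the other 7 libraries between 6.17 and 7.04 RPKM.

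The G1 regulators held the widest range of levels and both the lowest and the highest difference of the 45 genes. None of the 13 passed the adjusted threshold (0 genes, against 6.66% of all genes, with 2 at an unadjusted p under 0.05, against 18.7%). The log2 differences ran from -0.22 (Ccne1) to 0.26 (Cdkn1c) with a median of 0.03, 8 above 0 and 5 below.

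Among the D-type cyclins and their kinases, Ccnd2 and Cdk4 had the highest RPKM in both groups. Bulk RNA does not tell whether they share cells or come from dividing cells. Ccnd2 stood at 149 ± 11.8 RPKM in control and 146 ± 8.54 in cKO (SD, n = 4 each), 9.94 to 13.9 times Ccnd1 and 11.04 to 12.9 times Ccnd3 within each library. Cdk4 stood at 247 ± 10.02 and 247 ± 9.98 RPKM, 56.7 to 82.4 times Cdk6 and 29.5 to 32.4 times Cdk2. Neither differed between groups beyond the spread, with log2 differences of -0.01 ± 0.06 (SE; 95% interval -0.14 to 0.12) for Ccnd2 and 0.0031 ± 0.04 (-0.09 to 0.10) for Cdk4. An exon of Tspan31 overlaps Cdk4 on the other strand.

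The less abundant D-type partners spread more. Ccnd1 was at 11.1, 12.5, 14.1 and 12.05 RPKM in control and 13.2, 12.6, 11.9 and 14.5 RPKM in cKO (difference 0.08 ± 0.08, SE). Ccnd3 had means of 12.8 and 12.2 RPKM (difference -0.06 ± 0.06). Cdk6 (chromosome 5, 3341485 to 3531008, plus strand) was at 3.86, 3.20, 3.25 and 3.34 RPKM in control and 4.10, 3.94, 3.10 and 3.95 RPKM in cKO, so that 3 cKO libraries lay above every control and replicate 3 lay below them all. Its difference was 0.15 ± 0.09 (SE; 95% interval -0.04 to 0.34; limma adjusted p = 0.404; exact permutation p = 0.229). Without cKO replicate 3 it was 0.24 with an adjusted p of 0.0468 (0.0468 to 0.730 over all alternatives).

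Cdkn1c (p57), an inhibitor of cyclin-dependent kinases known for its part in cell cycle exit (chromosome 7, 143458339 to 143461050, minus strand), had the smallest adjusted p of the 45. The controls held 17.4, 14.8, 15.7 and 14.4 RPKM and the cKO libraries 16.1, 18.48, 19.6 and 19.7 RPKM. In 3 of 4 cKO libraries Cdkn1c was above every control, and cKO replicate 1 was below control replicate 1. The means were 15.6 ± 1.36 and 18.48 ± 1.65 RPKM (SD, n = 4 each), and the difference was 0.26 ± 0.08 (SE; 95% interval 0.09 to 0.42; limma adjusted p = 0.0722; exact permutation p = 0.0571).

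The call on Cdkn1c turned on single libraries. Without control replicate 1 its difference was 0.30 with an adjusted p of 0.0433, and without cKO replicate 1 it was 0.32 with an adjusted p of 0.011. The authors' deposited table gave an adjusted p of 0.119, and all alternatives spanned 0.011 to 0.268. An exon of the gene model Gm44732 overlaps Cdkn1c on the other strand.

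The related inhibitor Cdkn1b (p27; chromosome 6, 134920401 to 134925513, plus strand) was at 66.5, 69.96, 72.1 and 68.1 RPKM in control and 72.1, 77.7, 72.3 and 73.2 RPKM in cKO. The groups met near 72 RPKM, and the difference was 0.10 ± 0.04 (SE; 95% interval 0.01 to 0.19; limma adjusted p = 0.215; exact permutation p = 0.0857). Cdkn2c (p18), an inhibitor of Cdk4 and Cdk6, had means of 6.91 and 7.10 RPKM and a difference of 0.05 ± 0.06.

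Ccne1, a cyclin that activates Cdk2 at the start of S phase (chromosome 7, 38097984 to 38107534, minus strand), had the lowest difference of the 45 genes. It was at 2.54, 3.22, 3.29 and 2.94 RPKM in control and 2.30, 2.70, 2.75 and 2.45 RPKM in cKO, where 3 controls lay above every cKO library and control replicate 1 lay among them. The difference was -0.22 ± 0.11 (SE; 95% interval -0.47 to 0.03; limma adjusted p = 0.334; exact permutation p = 0.114). Its paralog Ccne2 gave 0.03 ± 0.06, with means of 4.09 and 4.16 RPKM, and Cdk2 gave -0.03 ± 0.06. Rb1, the retinoblastoma protein, gave 0.09 ± 0.05 (25.3 and 26.8 RPKM), and E2f1, which it restrains, gave -0.06 ± 0.08 (5.84 and 5.62 RPKM).

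Many extremes of the 45 genes lay in control replicates 2 and 3. Control replicate 3 was the highest of the 8 libraries in 25 of the 45 genes (55.6%, against 10.9% of all genes tested), namely 14 of 20 mitosis genes, 7 of 12 replication genes and 4 of 13 G1 regulators. Control replicate 2 was the lowest in 21 of the 45 (46.7%, against 16.9% of all genes). Control replicate 2 was the highest in 0 genes of the 45, and control replicate 3 the lowest in 0. The same libraries stood out in the 48 further mitosis genes described below, where control replicate 3 was the highest in 26.

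**Figure D4:**
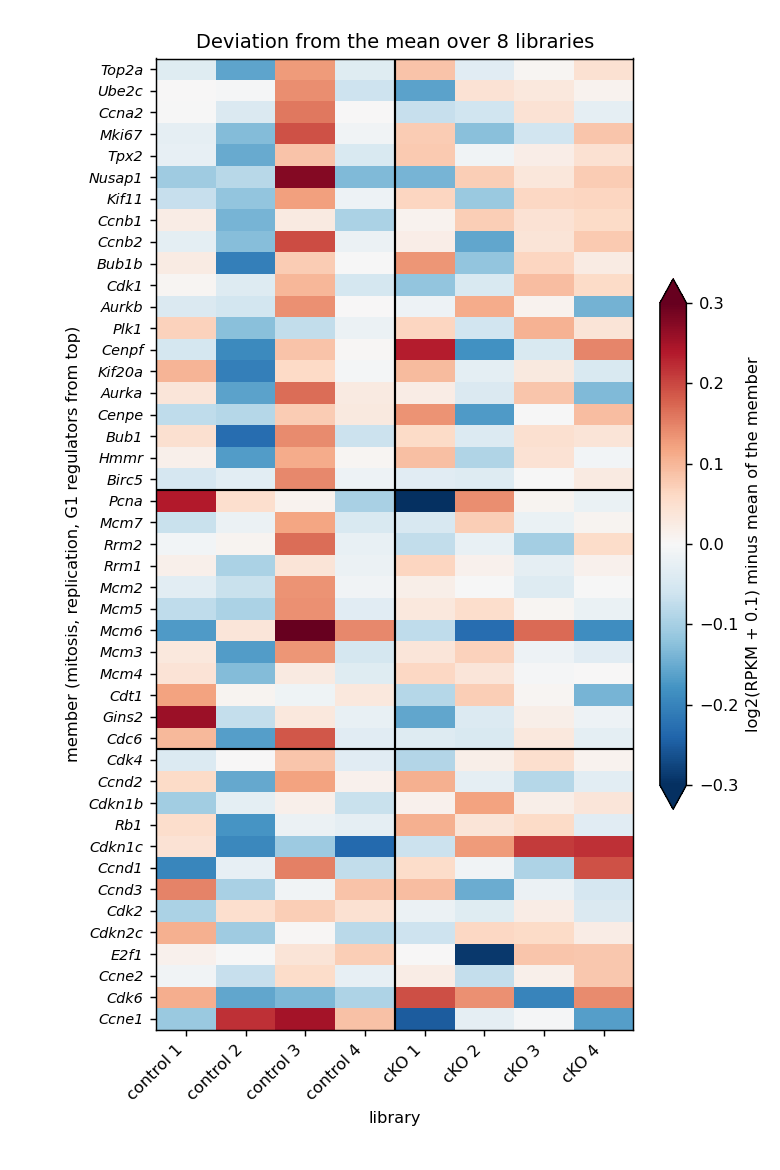
Deviation of each of the 45 genes (log2(RPKM + 0.1) minus its mean over the 8 libraries) by library, with mitosis, replication and G1 regulators from the top; red is above and blue below the gene's mean, and the colours end at 0.3. Control replicate 3 is the highest library in 25 genes and control replicate 2 the lowest in 21.

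As a mean over the 20 mitosis genes, log2(RPKM + 0.1) was 3.92, 3.80, 4.04 and 3.90 in the controls and 3.96, 3.87, 3.96 and 3.95 in cKO. The extremes were both controls, and the difference of the group means, 0.02, was smaller than the control SD of 0.10. The 12 replication genes averaged 4.27, 4.18, 4.34 and 4.22 in the controls and 4.18, 4.24, 4.24 and 4.20 in cKO (difference -0.03, control SD 0.07). The 13 G1 regulators averaged 3.94, 3.89, 3.98 and 3.92 in the controls and 3.95, 3.94, 3.95 and 3.98 in cKO (difference 0.02, control SD 0.04). No phase separated the groups. The mitosis difference was -0.02 without control replicate 2 and 0.06 without control replicate 3. These scores over chosen genes carry no test.

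The balance of the phases overlapped between the groups. The summed RPKM of mitosis genes over that of replication genes was 1.085, 1.072, 1.166 and 1.141 in the controls and 1.226, 1.076, 1.168 and 1.173 in cKO. In cKO, 3 of 4 ratios lay above every control, 2 of them close to control replicate 3, and the ratio of replicate 2 lay inside the control range. The highest ratio was in cKO replicate 1, in which Pcna was lowest. This ratio over chosen genes carries no test.

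Dissection markers also differed between libraries. The summed level of 8 pallial markers (such as Tbr1, Eomes and Neurod1) was 1.43 to 15.4 RPKM in control and 3.08 to 14.9 RPKM in cKO. Control replicate 3 was the lowest and cKO replicate 4 the next lowest. Of the 8, 0 passed the test, against 6.66% of all genes (0 at an unadjusted p under 0.05, against 18.7%). Radial glial markers (11 genes) summed to 1856 to 1981 RPKM in control and 1654 to 1927 RPKM in cKO, and subventricular progenitor markers (8 genes) to 105 to 112 and 103 to 113 RPKM. Their part in the level of the cell cycle genes was not tested. Without both pallial-low libraries, the count of the 45 genes past the threshold was still 0, with a median difference of 0.06.

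**Figure D5:**
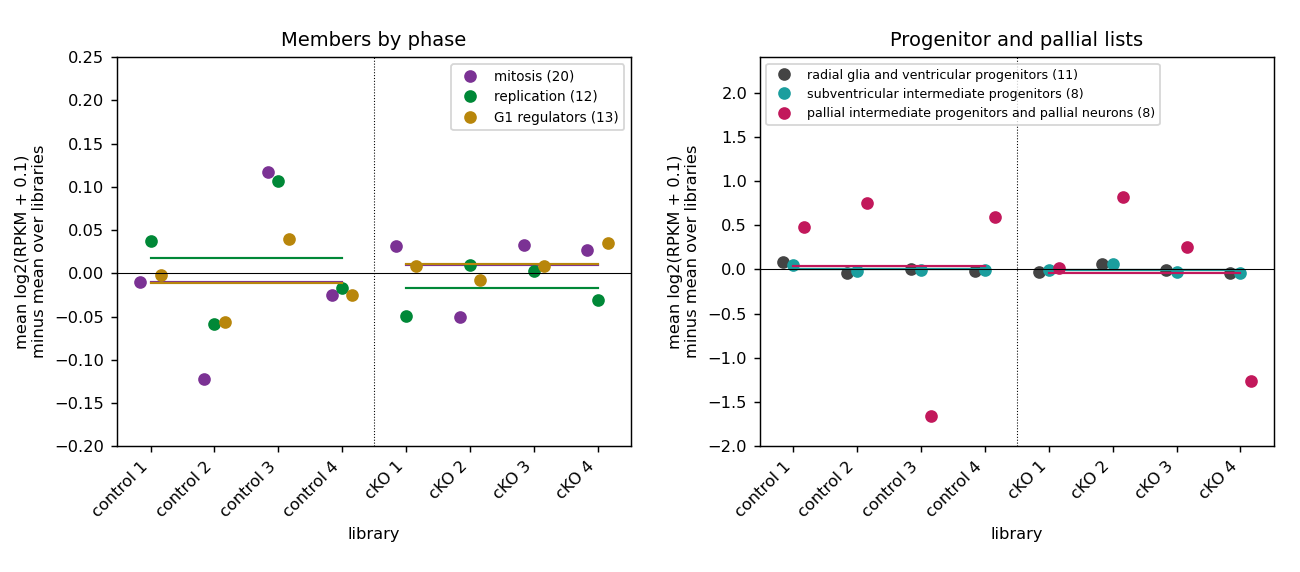
Mean log2(RPKM + 0.1) per library minus the mean over the 8 libraries, for the 3 phases (left) and for markers of radial glia, subventricular progenitors and pallial cells (right, on a wider axis); dots are libraries and lines are group means. Control replicate 3 is highest for all 3 phases among the controls and lowest for the pallial markers, and the group means of the phases differ by at most 0.03.

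In a wider set of 125 cell cycle genes, 2 passed the threshold, a smaller share than the 6.66% of all genes. They were Cdkn1a and Gadd45g, both lower in cKO. Genes that restrain the cycle did not move together. The kinase inhibitors Cdkn1b, Cdkn1c, Cdkn2c and Cdkn2d lay above 0 (log2 differences of 0.10, 0.26, 0.05 and 0.10), none of them past the threshold. Of 40 further replication genes, 0 rose and 0 fell (2 at an unadjusted p under 0.05), with a median log2 difference of 0.0040. The most abundant were Dnmt1, which copies DNA methylation onto new strands (39.5 and 41.9 RPKM; difference 0.09 ± 0.04, SE; limma adjusted p = 0.181), and the clamp loader subunit Rfc3 (35.8 and 36.0 RPKM). Of 48 further mitosis genes, 0 rose and 0 fell (6 at an unadjusted p under 0.05), with a median of -0.0023. Differences of these 48 ran from -0.38 (Ncapd2, limma adjusted p = 0.103) to 0.16 (Pttg1, 0.577), ends named after their values were seen. The most abundant were Ckap5, a microtubule polymerase (63.6 and 67.1 RPKM; 0.09 ± 0.04; adjusted p = 0.216), and the condensin subunit Smc4 (37.5 and 38.7 RPKM). In 8 of the 125 further genes the groups did not overlap (6.40%, against 12.7% of all genes). They were higher in cKO for Dnmt1, Slbp, Kif23, Ckap5 and Cdkn2d and lower for Racgap1, Cdkn1a and Gadd45g, and Slbp, Kif23, Cdkn2d and Racgap1 are named after their values were seen. An exact permutation p of 0.0286 is the smallest that 4 against 4 libraries can give.

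A further list held 37 genes chosen for control of the cycle. Of these, 0 rose and 2 fell (4 at an unadjusted p under 0.05), against 2.87% and 3.78% of all genes. The most abundant were Cdk5r1, the activator of the neuronal kinase Cdk5 (175 and 171 RPKM), and Fzr1, which holds G1 by degrading cyclins (38.5 and 39.8 RPKM).

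Cdkn1a (p21; chromosome 17, 29090976 to 29100727, plus strand), a kinase inhibitor of the same family as Cdkn1b and Cdkn1c, was at 7.35, 10.1, 6.85 and 8.38 RPKM in control and 5.50, 5.78, 5.13 and 6.09 RPKM in cKO. The groups did not overlap, and the controls spread more. Cdkn1a fell from 8.18 ± 1.45 to 5.63 ± 0.405 RPKM (SD, n = 4 each), a log2 difference of -0.52 ± 0.11 (SE; limma adjusted p = 0.0191; exact permutation p = 0.0286). The adjusted p was 0.0548 without control replicate 4 and 0.0574 without cKO replicate 3 (0.00168 to 0.0574 over all alternatives).

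Gadd45g, a growth arrest gene expressed as progenitors leave the cycle (chromosome 13, 51846678 to 51848468, plus strand), was at 27.2, 28.7, 26.9 and 26.3 RPKM in control and 21.0, 24.5, 23.0 and 23.6 RPKM in cKO. The groups did not overlap. Gadd45g fell from 27.3 ± 1.04 to 23.0 ± 1.47 RPKM (SD, n = 4 each), a log2 difference of -0.24 ± 0.06 (SE; limma adjusted p = 0.0348; exact permutation p = 0.0286). This call was close to the threshold: it was lost in 7 of 8 fits that each left out 1 library (adjusted p of 0.0582 to 0.0962) and in the authors' deposited table (0.0921), with 0.0175 to 0.123 over all alternatives.

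Of 19 markers of the progenitors that could carry the cycle, 1 passed the test, a share near the 6.66% of all genes. That gene, Sox9, a transcription factor of radial glia and glial progenitors, rose from 30.7 ± 3.76 to 39.5 ± 1.57 RPKM (SD, n = 4 each; log2 difference 0.38 ± 0.07, SE; limma adjusted p = 0.00502), with 35.7, 26.6, 30.0 and 30.4 RPKM in control and 41.8, 38.1, 38.9 and 39.1 RPKM in cKO. Without both pallial-low libraries its difference was 0.38, as with all 8, and its adjusted p was 0.0543 (0.000222 to 0.0543 over all alternatives). The other 10 radial glial markers and all 8 subventricular markers did not pass the test (1 in each list at an unadjusted p under 0.05). Of the markers of postmitotic neurons (9 genes), oligodendrocyte lineage (7), astrocyte lineage (6) and vessels (10), 0 passed (1, 2, 2 and 1 at an unadjusted p under 0.05).

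Of 12 microglial markers, 10 rose, against 2.87% of all genes, and microglia can divide at this stage. Their summed level was 55.5 to 63.3 RPKM in control and 89.2 to 109 RPKM in cKO, with Csf1r, the receptor that microglia need to survive, at 4.06 ± 0.238 and 6.73 ± 0.686 RPKM (SD, n = 4 each; difference 0.73 ± 0.08, SE; limma adjusted p = 0.000133). C1qc rose by 0.90 ± 0.10 and C1qa, another complement gene, by 0.91 ± 0.11 on the log2 scale. Of 6 erythroid genes 2 rose, against 2.87% of all genes. They were Hbb-bt, by 0.51 ± 0.11 (limma adjusted p = 0.0164), and Hba-a1, by 0.39 ± 0.10 (0.0454). The summed levels of the 6 were 332 to 533 RPKM in control and 475 to 679 RPKM in cKO. The part of these cells in the levels of the cell cycle genes was not tested.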

How the data were processed

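The deposited table lists 15705 genes in 8 libraries. STAR, featureCounts and edgeR, with build mm10, are named in the submitters' processing notes; their versions and the strand setting of the counting are not given there. The columns that the authors called raw are a score here and not counts: their upper quartiles lay between 1624 and 1635, and the values had 1 direction of the 8 libraries with almost no variation (singular value 0.000241, the next 0.0433), the trace of a removed factor, read from the values. Dividing them by library sum and gene length gives the deposited RPKM. The authors' deposited log2 differences and p-values served as an alternative.

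The values were compared as log2(value + 1) in R 4.3.3 with limma 3.58.1 (trended moderated test) over the 15698 genes that reached 1 in at least 4 libraries (7 were left out), with Benjamini-Hochberg adjustment and a threshold of 0.05. The pseudocount understates changes of low genes. Permutation tests enumerated all 70 assignments, two-sided; since the removed factor ties the libraries together, their p-values may be too small. Groups came from the labels. The p-values measure the spread between these embryos that was left after the factor was removed, and may be too small. With the missing direction charged to the model, 749 genes passed, against 1045 in the main fit.

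The 45 genes, the lists of further genes and the tests were chosen with earlier results of these data known. Named were all 45; of each further pathway list, genes past the threshold (up to 8) and the 2 of highest RPKM; of each marker list, up to 4 past the threshold; and Isl1. One gene that this rule names is not reported here. Sgo1, Sgo2a, Cdkn2a, Neurog1 and Ahsp are listed but had no tested value. Coordinates are those of GENCODE on GRCm38 (mm10). Of the 45 genes, 16 overlap an exon of a gene on the other strand, and 4 have named pseudogene copies. Alternatives covered pseudocounts, filters, scalings, RPKM in place of the adjusted values, the replicate block, the missing direction and leaving out libraries.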

Additional observations from a re-analysis of the deposited data

Results flagged for a closer look

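In each group of 4 libraries, a value was singled out when its gap to the nearest other value, divided by the range of the group, passed Dixon's 95% critical value. Chance singles out about 1 in 20 groups, and 8 of 128 examined were singled out. In control replicate 3, Nusap1 was at 23.1 RPKM (other controls 17.4 to 18.0), Birc5 at 7.64 (6.66 to 6.82), Rrm2 at 50.4 (44.1 to 45.1) and the microglial marker C1qc at 4.71 (5.92 to 6.02). In cKO replicate 2, Kif11 was at 15 RPKM while the other cKO libraries all lay at 17.0, and the mean log2 RPKM of the mitosis genes was 3.87 (others 3.95 to 3.96). Cdk6 was at 3.1 RPKM in cKO replicate 3 (others 3.94 to 4.10), and Dnmt1 at 43.4 RPKM in cKO replicate 1 (others 41.3 to 41.5). Control replicate 3 accounts for 4 of the 8 values.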

How the results depend on the processing

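Of 855 values of the 45 genes over 19 alternatives, 3 changed their call and 0 values that passed the test in either fit changed sign. Among values that did not pass, the sign of the log2 difference changed in 54 of the 855, at most in 9 genes per alternative (without control replicate 3, and without both pallial-low libraries). The number of the 45 genes past the threshold was 0 under the 10 changes of pseudocount, filter, scaling, values, tool, block and model and without both pallial-low libraries, and 0 to 1 when 1 library was left out. The 1 gene was Cdkn1c without control replicate 1 or cKO replicate 1, and Cdk6 without cKO replicate 3. The adjusted p of Cdkn1c ranged from 0.011 to 0.268 over the alternatives. The median log2 difference of the 45 genes was 0.03, and -0.0072 to 0.06 when 1 library was left out. Over all genes, 1045 passed, 658 to 959 when 1 library was left out (658 without control replicate 4), and 608 (215 higher, 393 lower) without both pallial-low libraries. Fewer samples enter these fits, and another part in the change was not tested.

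Same-numbered libraries did not deviate together (residual correlations of 0.41, -0.17, -0.49 and -0.77), and the replicate 1 libraries alone correlated best with their own number. With the replicate number as a block, 1199 genes and 0 of the 45 passed. Hba-a1 lost its call in 5 of 8 fits without 1 library (adjusted p up to 0.133), on RPKM (0.0594) and with the missing direction charged to the model (0.0608), and Hbb-bt lost it in 2 of the 8 (up to 0.0573). With the missing direction charged, the adjusted p of Gadd45g was 0.0747. Depth is unknown, so no counting error can be given, and genes of low level such as Cdc6, Ccne1 and Cdk6 rest on an unknown number of reads.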
